A study of Mus musculus with 8 samples.

Results

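The genes described here are Srebf1, Acly, Acaca, Fasn, Elovl6, Elovl5, Scd1, Scd2, Fads1 and Fads2, which control or carry out the synthesis, elongation and desaturation of fatty acids. They were chosen by symbol, and each of the 10 had a probe set annotated with its symbol alone, among 19938 genes with such a probe set. Acaca had 2 of these probe sets and was read from the brighter. RNA came from macrophages of C57BL/6J mice that thioglycollate, an irritant, had drawn into the peritoneum, collected 5 days after its injection. In 4 cultures the cells had no added lipoprotein (unloaded), and in 4 they had acetylated low-density lipoprotein (acLDL), a chemically altered lipoprotein whose uptake by scavenger receptors fills macrophages with cholesterol. No genetic alteration is listed for either group, and cells of both were kept in DMEM with fetal bovine serum. The sample protocols give 20 µg/mL acLDL and 3 days, whereas the text on the whole series gives 50 µg/mL and 2 days, so dose and time are not settled. The replicates are called independent, but the mice behind each culture were not stated in the labels, so the p-values measure the spread between these cultures. Expression is on the log2 scale, on which 1 unit is a 2-fold difference, and every difference is acLDL minus unloaded.

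As background, cells build fatty acids from acetyl-CoA. ATP citrate lyase (Acly) makes cytosolic acetyl-CoA, acetyl-CoA carboxylase (Acaca) turns it into malonyl-CoA, and fatty acid synthase (Fasn) assembles palmitate. Elovl6 lengthens palmitate to stearate, the stearoyl-CoA desaturases Scd1 and Scd2 put in the first double bond, and Fads1, Fads2 and Elovl5 make long polyunsaturated fatty acids from dietary precursors. Srebf1 encodes SREBP1, a membrane-bound transcription factor of these genes that is released by cleavage when sterols are low and whose own gene is a target of the oxysterol receptors LXR. The arrays measure the mRNA and not the cleavage.

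Because 8 of the 10 genes moved the same way, the 250 bases before their RefSeq start sites (GRCm38.p6) are shown for the genes with the largest and middle falls, for Elovl5 and for Srebf1, which went the other way. RefSeq windows matched 7 of the 10 genes, in 9 windows. Scd1, Scd2 and Fads1 were not matched. Srebf1 had 3 start sites, of which the window with the most motif matches is printed. Sequences run 5′ to 3′ along the gene, and capitals mark matches, on either strand, to 4 motifs: TCACNCCAC, the core of a sterol regulatory element, the box CCAAT bound by NF-Y, the GC box written GGGCGG, and the E-box written CACGTG.
Fads2, chr19:10101504-10101753, minus strand: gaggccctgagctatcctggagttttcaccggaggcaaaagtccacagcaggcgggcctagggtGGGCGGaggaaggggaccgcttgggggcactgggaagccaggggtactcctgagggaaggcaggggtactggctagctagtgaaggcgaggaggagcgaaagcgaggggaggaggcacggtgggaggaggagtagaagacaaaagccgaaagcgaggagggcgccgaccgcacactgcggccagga
Elovl6, chr3:129532136-129532385, plus strand: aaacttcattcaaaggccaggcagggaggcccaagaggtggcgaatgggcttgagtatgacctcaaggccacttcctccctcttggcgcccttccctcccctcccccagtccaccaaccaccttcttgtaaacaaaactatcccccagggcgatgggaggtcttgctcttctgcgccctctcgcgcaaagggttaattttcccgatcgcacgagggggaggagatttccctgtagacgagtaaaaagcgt
Fasn, chr11:120824548-120824797, minus strand: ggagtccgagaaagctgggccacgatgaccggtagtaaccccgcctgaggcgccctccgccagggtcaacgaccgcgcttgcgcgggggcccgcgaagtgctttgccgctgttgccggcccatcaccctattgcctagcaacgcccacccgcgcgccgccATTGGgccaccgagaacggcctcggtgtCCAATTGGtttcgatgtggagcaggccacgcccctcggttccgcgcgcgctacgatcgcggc
Elovl5, chr9:77917115-77917364, plus strand: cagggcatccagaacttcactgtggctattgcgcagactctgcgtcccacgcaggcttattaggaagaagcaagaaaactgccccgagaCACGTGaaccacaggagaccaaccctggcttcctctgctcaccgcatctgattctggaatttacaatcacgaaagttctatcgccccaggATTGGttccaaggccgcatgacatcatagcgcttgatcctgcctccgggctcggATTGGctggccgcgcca
Srebf1, chr11:60210472-60210721, minus strand: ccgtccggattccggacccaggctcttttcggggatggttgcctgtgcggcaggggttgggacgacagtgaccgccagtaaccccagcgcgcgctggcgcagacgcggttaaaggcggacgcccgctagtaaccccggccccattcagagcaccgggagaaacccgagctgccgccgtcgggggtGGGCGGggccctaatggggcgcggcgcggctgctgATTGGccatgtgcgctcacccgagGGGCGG
The letters TCACNCCAC were in 0 of the 9 windows and in 1.05% of all 32851 RefSeq windows of that length. CCAAT was in 4 of the 9 windows (Elovl5, Fasn and 2 of Srebf1) and in 33.9% of all windows. The Fasn window held it at 3 places, beginning 90, 62 and 59 bases before the start, and the last pair overlap as CCAATTGG. GGGCGG was in 4 windows (Acly, Fads2 and 2 of Srebf1) and in 32.7% of all, and CACGTG was in 1 (Elovl5) and in 6.02% of all. The windows of Elovl6, which had the second largest fall, and of Acaca, which did not pass, held no match to any of the 4 motifs. No motif overlapped another kind of motif in the printed windows, and a match in these letters is a description only. The same holds for the absence of a match. A motif in 1.05% of all windows is seldom met in 9, and no motif beyond the 4, such as that of LXR, was searched.

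Most of the enzymes fell with acLDL and the regulator rose slightly. Of the 10 genes 8 fell, 1 rose and 1 did not pass (limma, adjusted p under 0.05 over all genes), where 23.3% of all genes tested were called, 10.5% lower (2085 genes) and 12.9% higher (2565 genes). With arrays centred on the median of all deposited probe sets, a setting added once the data had been seen, the split over all genes was 1390 lower and 2802 higher, and 7 of the 10 genes fell and 1 rose. The largest falls were in the desaturase gene Fads2, to 52.2% of its unloaded level, the elongase gene Elovl6, to 57.5%, and Scd1, to 58.5%. These 3 of 10 fell by at least 1.5-fold, as did 0.697% of all genes, and Scd2 stood just short of that at 1.49-fold. The 4 arrays of each group did not overlap in 9 of the 10 genes, against 25.6% of all genes. In 8 of the 10 the acLDL arrays lay wholly below the unloaded arrays, against 11.6% of all genes. The median difference of the 10 genes was -0.40, with a range from -0.94 to 0.21, and that of all genes was -0.0031. All 10 had a mean level above 6.12, the 95th percentile of 1027 olfactory receptor genes, used as a gauge of background. In bulk RNA, fewer cells of a type and less RNA per cell cannot be told apart.

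**Figure D1:**
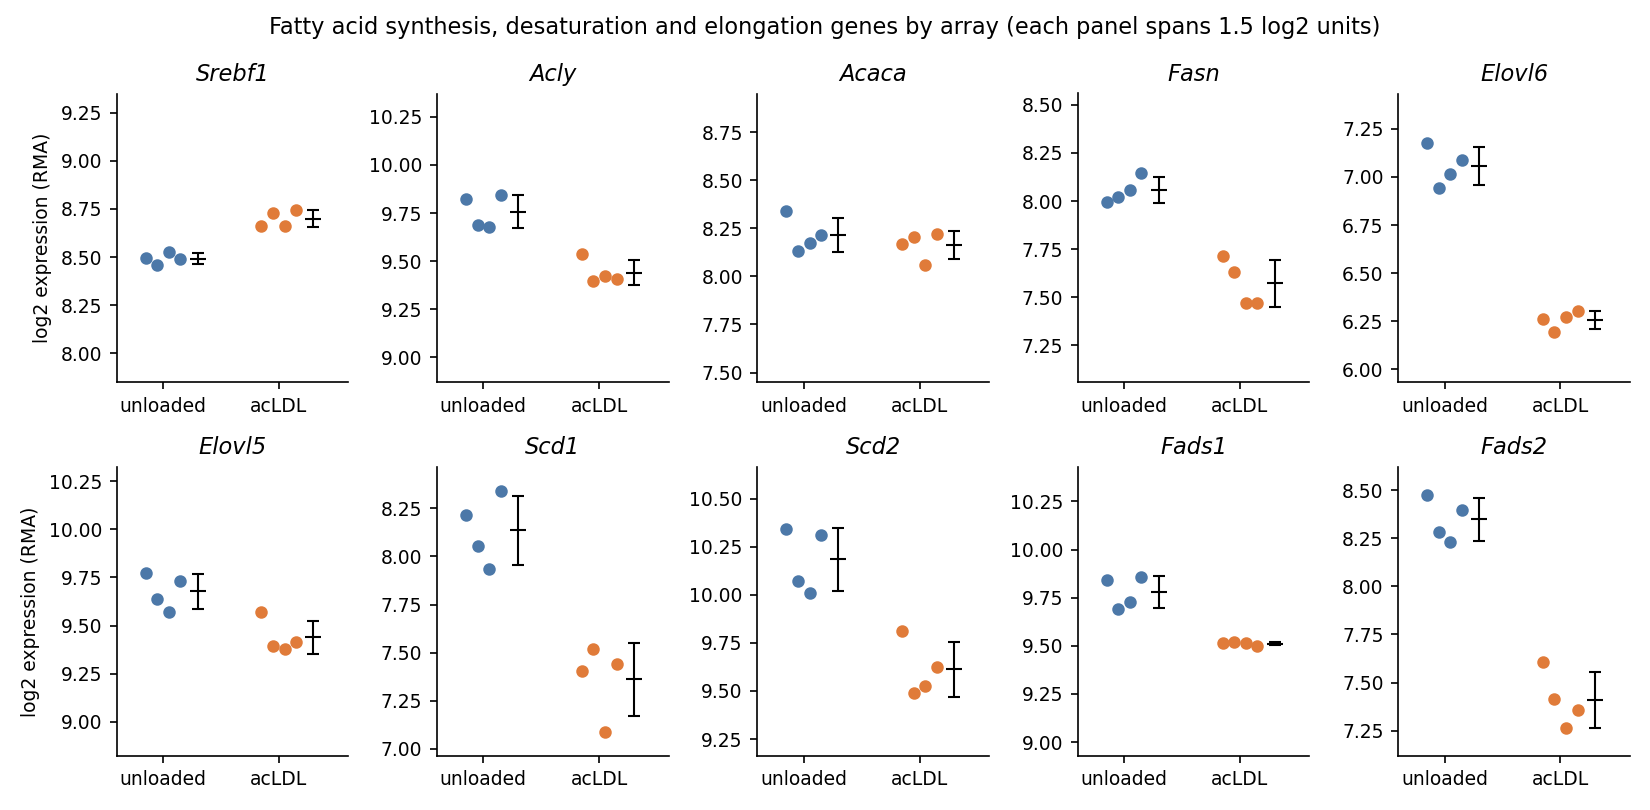
Log2 expression of the 10 genes in each array, 4 unloaded (blue) and 4 acLDL (orange), with the group mean and SD beside the points; each panel spans 1.5 log2 units, so that slopes compare across panels but levels do not. The acLDL points lie below the unloaded points without overlap in 8 panels, above them for Srebf1, and among them for Acaca.

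The regulator gene rose slightly, whereas 8 enzyme genes fell and Acaca did not pass. Srebf1 stood at 8.50, 8.46, 8.52 and 8.49 in unloaded arrays 1 to 4 and at 8.66, 8.73, 8.66 and 8.74 in acLDL arrays 1 to 4. Every acLDL array was above every unloaded array, and the arrays of a group differed little. The rise was 0.21 ± 0.06 (SE; limma adjusted p = 0.0189), or 1.15-fold, the 5086th largest absolute difference among all genes. It did not pass with each array centred on its median over the genes tested (0.19, adjusted p = 0.0662), without acLDL array 2 (0.20, adjusted p = 0.0569) or without acLDL array 4 (0.19, adjusted p = 0.0592). The probe set covers the gene, and transcripts from its 3 start sites were not separated here.

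Among the enzymes that lead to palmitate, the first and last steps fell and the middle step did not pass. Acly was at 9.82, 9.69, 9.68 and 9.84 in the unloaded arrays and at 9.53, 9.40, 9.42 and 9.41 in the acLDL arrays. It fell by 0.32 ± 0.07 (SE; limma adjusted p = 0.00319), and its lowest unloaded array was above its highest acLDL array. Fasn was at 7.99, 8.02, 8.06 and 8.15 in the unloaded arrays and at 7.72, 7.63, 7.47 and 7.47 in the acLDL arrays. The acLDL arrays spread more widely, and arrays 3 and 4 were the lowest. It fell by 0.48 ± 0.07 (SE; limma adjusted p = 0.000295), which is 1.40-fold.

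Acaca, the carboxylase gene between these steps, showed overlapping groups. Its values were 8.34, 8.13, 8.17 and 8.21 without acLDL and 8.17, 8.21, 8.06 and 8.22 with it. The difference was -0.05 ± 0.07 (SE; limma adjusted p = 0.636), with a 95% interval from -0.20 to 0.09. Unloaded array 1 was the highest of the 8 and acLDL array 3 the lowest. The dimmer Acaca probe set was at 6.83 ± 0.12 in unloaded and 6.82 ± 0.05 in acLDL cells (SD, n = 4), a difference of -0.01. The 95% interval of the brighter probe set does not reach the fitted falls of Acly, Fasn or any other of the 8 enzymes past the threshold. Those falls carry their own error: the intervals of Acly (-0.46 to -0.18), Fads1 (-0.40 to -0.14) and Elovl5 (-0.39 to -0.09) overlap that of Acaca. Of the 8, only Fasn was tested against Acaca.

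Elovl6, which lengthens palmitate, had the second largest fall of the 10 genes. Its values were 7.17, 6.94, 7.02 and 7.09 in unloaded arrays and 6.26, 6.19, 6.27 and 6.30 in acLDL arrays. The acLDL arrays lay close together, and the nearest arrays of the groups were 0.64 apart. It fell by 0.80 ± 0.07 (SE; limma adjusted p = 2.71e-06), or 1.74-fold. Its acLDL level was near the background gauge of 6.12, where RMA compresses differences, so the size may be understated.

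Both stearoyl-CoA desaturase genes fell. Scd1 stood at 8.21, 8.05, 7.93 and 8.34 in unloaded arrays and at 7.41, 7.52, 7.09 and 7.44 in acLDL arrays. It had the widest spread of the 10 genes in both groups, with SDs of 0.18 and 0.19, and acLDL array 3 was the lowest. It fell by 0.77 ± 0.10 (SE; limma adjusted p = 0.000118). Scd2 stood at 10.34, 10.07, 10.01 and 10.31 without acLDL and at 9.81, 9.49, 9.53 and 9.62 with it. Here acLDL array 1 was the highest loaded array and still lay below all unloaded arrays. It fell by 0.57 ± 0.09 (SE; limma adjusted p = 0.000502). Scd1 and Scd2 lie in a row of desaturase genes with Scd4 and Scd3 and no other coding gene between them (RefSeq order, GRCm38.p6). Scd3 and Scd4 were at 5.38 and 4.89 in unloaded cells, below the background gauge, and differed by -0.05 and -0.02, which did not pass.

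The genes of polyunsaturated fatty acid synthesis fell by unequal amounts. Fads2, which carries out the first desaturation of that route, stood at 8.48, 8.28, 8.23 and 8.40 in unloaded arrays and at 7.60, 7.42, 7.26 and 7.36 in acLDL arrays. The groups were 0.63 apart at their nearest arrays, and acLDL array 1 was the highest loaded array. It fell by 0.94 ± 0.08 (SE; limma adjusted p = 4.48e-06), or 1.91-fold, the 74th largest absolute difference among all genes. Fads1, the next desaturase of the route, stood at 9.84, 9.69, 9.73 and 9.86 without acLDL and at 9.51, 9.52, 9.51 and 9.50 with it. Its acLDL arrays were nearly identical, with an SD of 0.01 against 0.08 in unloaded cells. It fell by 0.27 ± 0.06 (SE; limma adjusted p = 0.00626). Fads3, a relative that adjoins Fads2 as Fads1 does, differed by 0.01 ± 0.06 (SE; limma adjusted p = 0.944).

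Elovl5, which lengthens polyunsaturated fatty acids, had the smallest fall past the threshold. It stood at 9.77, 9.64, 9.57 and 9.73 in unloaded arrays and at 9.57, 9.39, 9.38 and 9.42 in acLDL arrays. The groups did not overlap, but unloaded array 3 and acLDL array 1 nearly touched, 0.0036 apart. It fell by 0.24 ± 0.07 (SE; limma adjusted p = 0.0217). It no longer passed without unloaded array 1 (adjusted p = 0.0520) or 4 (0.0598), without acLDL array 2 (0.0614), 3 (0.0626) or 4 (0.0556), with arrays centred on the median of all deposited probe sets (0.0893), and without unloaded arrays 1 and 4 together (a difference of -0.17, adjusted p = 0.134).

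**Figure D2:**
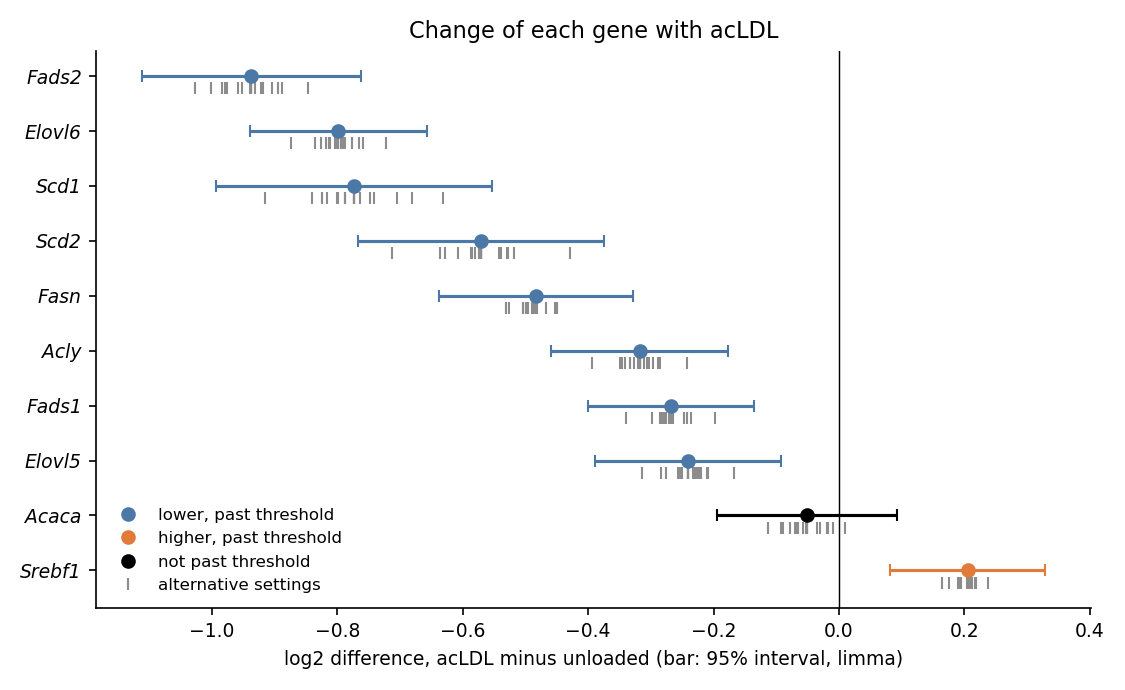
Log2 difference (acLDL minus unloaded, 4 arrays each) of each gene with its 95% interval from limma, coloured by call; grey ticks below each point are the same difference in the alternative settings. The differences run from -0.94 for Fads2 to 0.21 for Srebf1, and only the Acaca interval crosses 0.

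Whether related enzymes changed by different amounts was tested on the log2 difference between the genes of a pair within each array, for 6 pairs. The level of such a difference depends on the probes, and only its change between groups is read. The size of that change can also depend on the probes, because RMA compresses small signals and the genes of a pair differ in level. Fads2 minus Fads1 went from -1.43 ± 0.06 to -2.10 ± 0.14 (SD, n = 4), so that Fads2 fell by 0.67 more than Fads1 (two-sided exact permutation p = 0.0286, the smallest that 4 arrays against 4 can give; 0.0429 after Benjamini-Hochberg adjustment over the 6 pairs). Elovl6 minus Elovl5 went from -2.62 ± 0.06 to -3.18 ± 0.09 (SD, n = 4), a difference of -0.56 with the same exact permutation p and adjusted p. Fasn minus Acaca went from -0.16 ± 0.13 to -0.59 ± 0.12 (SD, n = 4), a difference of -0.43, again with these values of p. In each of these pairs all 4 acLDL arrays lay below all 4 unloaded arrays. Their adjusted p also counts the pair of Srebf1 and Srebf2 below, whose exact p was fixed by the opposite moves of its genes.

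The remaining enzyme pairs overlapped. Scd1 minus Scd2 went from -2.05 ± 0.07 to -2.25 ± 0.22, a difference of -0.20 (95% interval -0.41 to 0.0031 in limma; exact permutation p = 0.143, adjusted p = 0.143; n = 4). The acLDL arrays were split, with array 2 at -1.97 and array 3 at -2.44. Fasn minus Acly went from -1.70 ± 0.09 to -1.87 ± 0.09, a difference of -0.17 (95% interval -0.31 to -0.02 in limma; exact permutation p = 0.0857, adjusted p = 0.103; n = 4). With limma in place of the permutation test, Fasn minus Acly passed (adjusted p = 0.0309 over the 6 pairs) and Scd1 minus Scd2 did not (adjusted p = 0.0530).

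The genes of the 2 SREBP factors moved apart. Srebf2, which encodes SREBP2, the main regulator of sterol synthesis, stood at 9.70, 9.68, 9.70 and 9.72 in unloaded arrays and at 8.91, 8.85, 8.79 and 8.93 in acLDL arrays. It fell by 0.83 ± 0.06 (SE; limma adjusted p = 6.79e-07), while Srebf1 rose. Srebf1 minus Srebf2 went from -1.21 ± 0.02 to -0.17 ± 0.06 (SD, n = 4), a difference of 1.04 (exact permutation p = 0.0286, adjusted p = 0.0429). Each gene was already apart between the groups, in opposite directions, so this p was fixed in advance and adds no support.

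**Figure D3:**
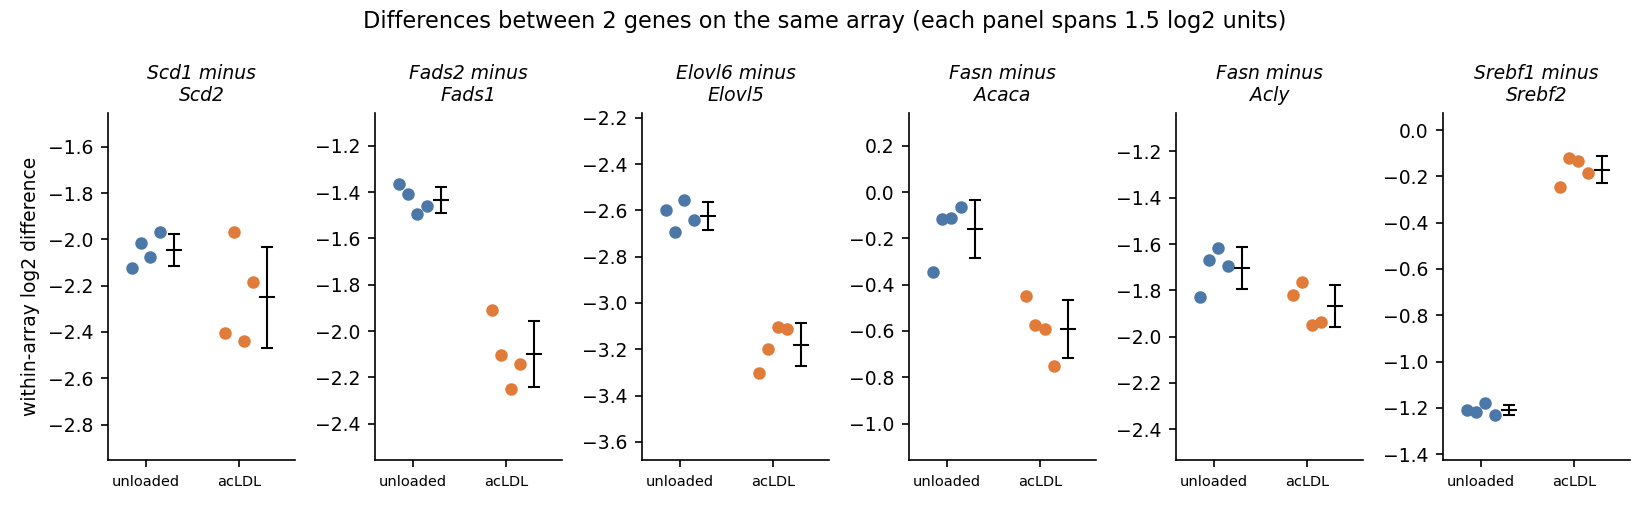
Within-array log2 difference between the genes of 6 pairs in the 4 unloaded (blue) and 4 acLDL (orange) arrays, with group mean and SD; each panel spans 1.5 log2 units. The groups do not overlap for Fads2 minus Fads1, Elovl6 minus Elovl5, Fasn minus Acaca and Srebf1 minus Srebf2, and overlap for Scd1 minus Scd2 and Fasn minus Acly.

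Genes around the pathway are given from lists by role, and each count is to be read against the 12.9% of all genes that were higher and the 10.5% that were lower, with a median of -0.0031. Of 7 measured genes in the list for supply of acetyl-CoA and NADPH, 0 rose, 3 fell (42.9%) and 4 did not pass, with a median of -0.11. The list also holds Aacs, whose product is acetoacetyl-CoA. Idh1, the cytosolic isocitrate dehydrogenase, fell by 0.46 ± 0.07, Aacs, the acetoacetyl-CoA synthetase, by 0.32 ± 0.06, and Acss2, which makes acetyl-CoA from acetate, by 0.23 ± 0.07 (SE; limma adjusted p = 0.0190 for Acss2, the largest of the 3). Of 8 partners and regulators of the carboxylase 0 rose, 1 fell (12.5%, near the 10.5% of all genes) and 7 did not pass, with a median of 0.05. The gene that fell was Mid1ip1, whose product promotes polymerisation of the carboxylase, by 0.21 ± 0.06 (SE).

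Other genes of elongation and desaturation were called at shares near those of all genes. Of 12 further elongation genes 0 rose, 1 fell (8.33%, beside 10.5% of all genes) and 11 did not pass (median -0.04), and 7 of the 12 had a mean above the background gauge. The gene that fell was Hacd4, a member of the family of acyl-CoA dehydratases, by 0.32 ± 0.08 (SE). Of 10 other desaturases and electron donors 1 rose (10.0%, beside 12.9% of all genes), 1 fell (10.0%, beside 10.5%) and 8 did not pass (median -0.04). Cyb5b, a cytochrome b5 of the outer mitochondrial membrane, fell by 0.64 ± 0.09, and Cyb5r1, a cytochrome b5 reductase, rose by 0.40 ± 0.06 (SE).

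Genes that process SREBP or regulate lipid synthesis went both ways. Of 18 measured, 6 rose (33.3%, beside 12.9% of all genes), 5 fell (27.8%, beside 10.5%) and 7 did not pass, with a median of 0.11. Besides Srebf2, the largest changes were in Insig1 and Insig2, which hold the SREBP complex in the endoplasmic reticulum and fell by 1.66 ± 0.08 and 0.70 ± 0.06 (SE). Insig1 stood at 10.61, 10.54, 10.51 and 10.73 in unloaded arrays and at 9.08, 9.05, 8.75 and 8.86 in acLDL arrays, a wide gap between the groups. Nr1h3, which encodes LXR alpha, rose by 0.66 ± 0.07, and Scap, which escorts SREBP to the Golgi and was chosen for mention after its value was seen, by 0.28 ± 0.06 (SE).

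Of 15 acyl-CoA synthetase and glycerolipid synthesis genes, which activate fatty acids or build them into lipids, 3 rose (20.0%, beside 12.9% of all genes), 2 fell (13.3%, beside 10.5%) and 10 did not pass, with a median of 0.05. Nothing about the list is read from shares this near to those of all genes. Agpat3, a lysophospholipid acyltransferase, rose by 0.73 ± 0.07, Slc27a4, a fatty acid transport protein, by 0.22 ± 0.07, and Lpin1, a phosphatidate phosphatase, fell by 0.66 ± 0.07 (SE). Of 5 genes of mitochondrial fatty acid synthesis, a separate route, 3 rose (60.0%, beside 12.9% of all genes), 0 fell and 2 did not pass, with a median of 0.20. Mecr, its enoyl reductase, rose by 0.57 ± 0.08, Ndufab1, its acyl carrier protein, by 0.24 ± 0.06, and Mcat, its malonyl transferase, by 0.20 ± 0.06 (SE).

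Genes of sterol synthesis and LDL uptake and LXR targets are given for comparison. Of 18 measured genes of the first list, among them Stard4, which transports sterols and does not make them, 15 fell (83.3%, beside 10.5% of all genes), 0 rose and 3 did not pass, with a median of -1.37. Of these 18, 13 fell further than Fads2, Stard4 included. Idi1, Cyp51 and Sc5d, enzymes of the sterol route, had the largest of these falls, with differences of -2.45 ± 0.08, -2.34 ± 0.08 and -1.90 ± 0.07 (SE). Of 9 LXR targets 7 rose (77.8%, beside 12.9% of all genes), 0 fell and 2 did not pass, with a median of 0.46. Abca1, the cholesterol exporter, rose by 1.93 ± 0.06, and Mylip, a ubiquitin ligase for lipoprotein receptors, by 0.91 ± 0.06 (SE). Srebf1, also an LXR target, rose less than the 7, whose smallest rise was 0.33 in Lpl, a gene chosen for mention after its value was seen. These are counts and medians of lists and were not tested against each other. All the lists rest on the same 8 arrays.

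**Figure D4:**
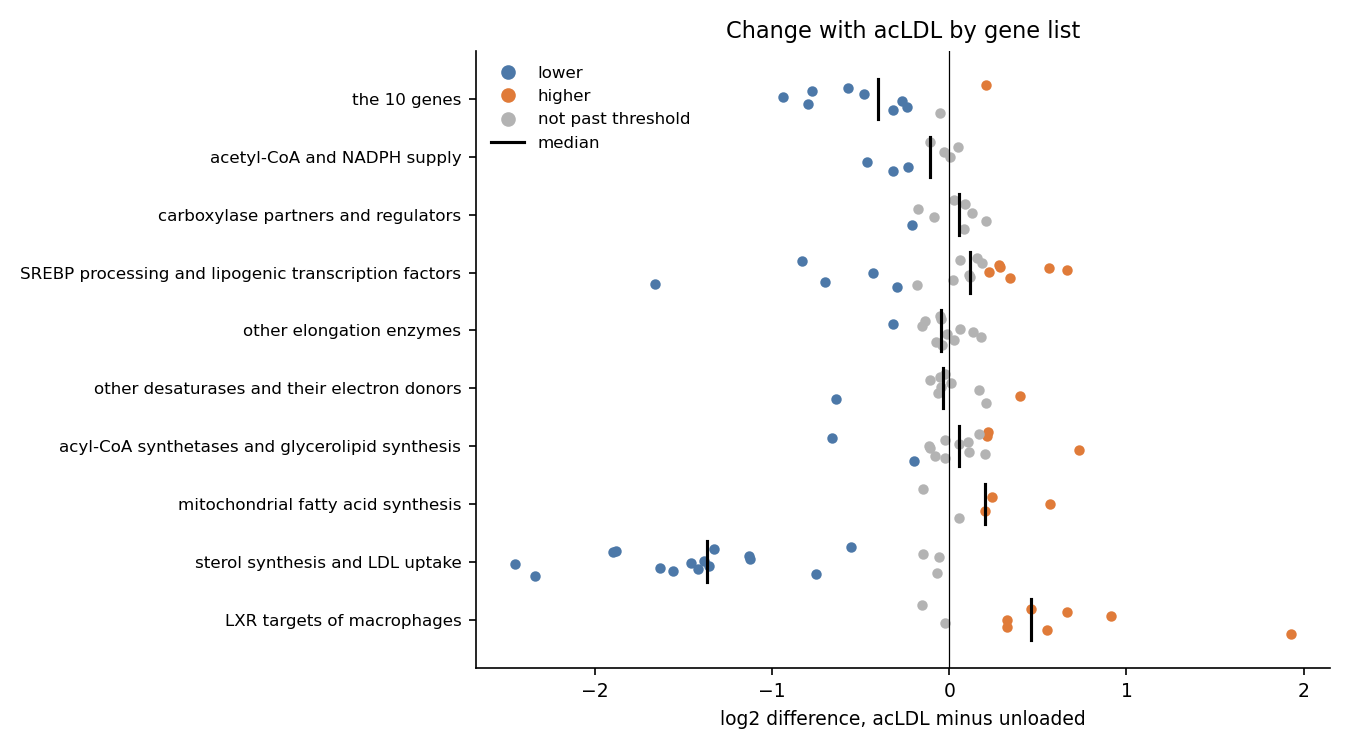
Log2 difference (acLDL minus unloaded) of each measured gene, by list, coloured by call, with the list's median as a black bar; Nr1h3 and Lpcat3 appear in 2 lists. The median of the 10 genes, -0.40, lies between that of the sterol list, -1.37, and that of the LXR targets, 0.46, and single genes of the lists overlap, with Srebf1 at 0.21 and Acaca at -0.05.

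The unloaded arrays differed among themselves in these genes. In 8 of the 10 genes, all but Srebf1 and Fasn, both unloaded arrays 1 and 4 were above both arrays 2 and 3, an order seen in 28.9% of all genes. In 0 of the 10 genes were they both below, against 27.3% of all genes. Median log2 values of all probe sets ran the other way, at 6.23 and 6.27 in arrays 1 and 4 and 6.33 and 6.36 in arrays 2 and 3, and at 6.25 to 6.29 in the acLDL arrays. Without arrays 1 and 4, 7 of the 10 genes fell, with differences of -0.85 for Fads2, -0.72 for Elovl6, -0.63 for Scd1 and -0.43 for Scd2. Without arrays 2 and 3, 8 fell, with differences of -1.03, -0.87, -0.92 and -0.71 for the same genes. For Elovl5 the difference was -0.17 without arrays 1 and 4 and -0.31 without arrays 2 and 3. The part of this split in the results beyond these values was not tested.

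**Figure D5:**
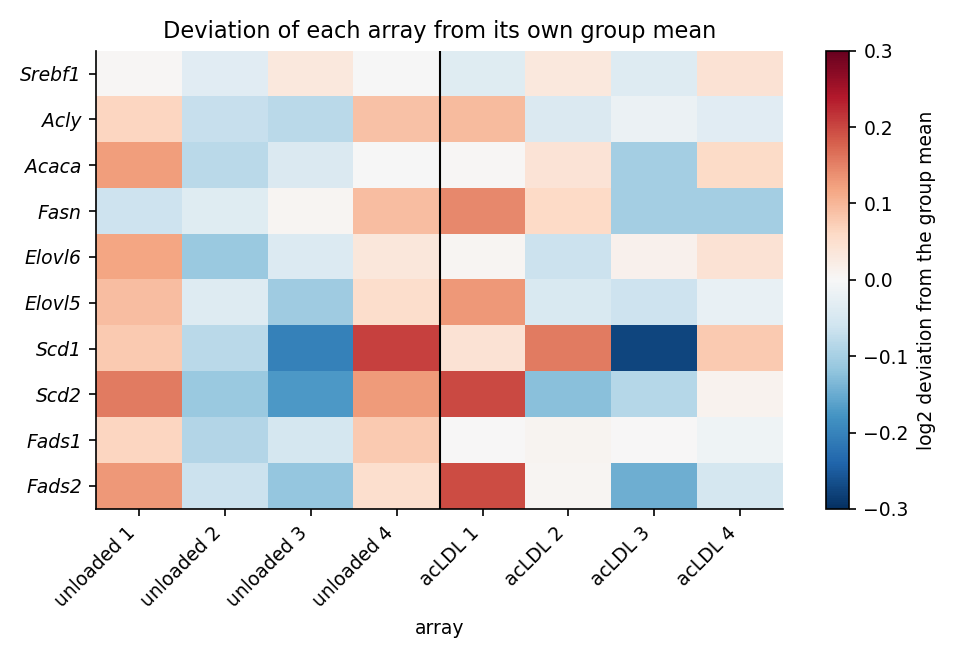
Deviation of each array from its own group mean (log2, red above, blue below) for the 10 genes; the line separates 4 unloaded from 4 acLDL arrays. Unloaded arrays 1 and 4 are above arrays 2 and 3 in 8 rows, and Scd1 in acLDL array 3 is the lowest cell.

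Markers of macrophages and of other cells were read on the same arrays. All 8 macrophage markers lay above the background gauge, and their mean level was 10.33 to 10.45 in unloaded and 10.60 to 10.65 in acLDL arrays. Of these 8, 4 rose (50.0%, beside 12.9% of all genes), 1 fell (12.5%, beside 10.5%) and 3 did not pass. Fcgr1, an Fc receptor gene, had the smallest p and rose by 0.71 ± 0.07 (SE), and Cd68, the brightest, differed by -0.09 ± 0.06 (SE) and did not pass. Their part in the falls of the fatty acid genes was not tested.

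Stromal markers were present as well. Of 8 fibroblast and mesothelium markers 6 lay above the gauge, and their mean level was 8.12 to 8.24 in unloaded and 8.07 to 8.20 in acLDL arrays. Dcn, encoding the matrix protein decorin, was the brightest and fell by 0.26 ± 0.08 (SE; limma adjusted p = 0.0229), with overlapping groups. It was the only 1 of the 8 markers called (12.5% lower, near the 10.5% of all genes), and the other 7 did not pass. Their part in the results was not tested. Of 5 adipocyte markers, from cells rich in the same enzymes, 2 lay above the gauge by their mean. The adipocyte hormone gene Adipoq, chosen for mention after its value was seen, was at 4.04 in unloaded and 4.22 in acLDL cells, both below the gauge. Plin1, the brightest, differed by 0.04 ± 0.08, and Retn, with the smallest p, fell by 0.23 ± 0.07 (SE). Retn was the only 1 of the 5 called (20.0% lower, beside 10.5% of all genes), and the other 4 did not pass. The list's mean level was 5.37 to 5.56 in unloaded and 5.36 to 5.49 in acLDL arrays.

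Markers of blood cells were near or below the gauge. Mean levels were 5.57 to 5.83 and 5.55 to 5.75 for 4 T cell markers, 5.19 to 5.37 and 5.27 to 5.47 for 4 B cell markers, and 5.17 to 5.39 and 5.26 to 5.35 for 6 eosinophil and mast cell markers in unloaded and acLDL arrays. In limma 0 of these 14 passed, beside 23.3% of all genes, with 2 at an unadjusted p under 0.05. Only 1 T cell, 0 B cell and 1 eosinophil and mast cell marker had a mean above the gauge, so the lack of calls says little about these cells. Cd3e, Cd79b and Tpsb2 were the brightest, with differences of -0.12, 0.06 and -0.20, and Cd79a, the B cell marker with the smallest p, differed by 0.21. For 6 neutrophil markers the mean levels were 5.60 to 5.76 and 5.54 to 5.64. Ly6g, with the smallest p, was at 4.79 and 4.46, below the gauge, and fell by 0.32 ± 0.08 (SE), 2 of the 6 fell (33.3%, beside 10.5% of all genes), and the brightest, S100a8, differed by -0.03.

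The genes whose 8 values, centred on the unloaded mean, lay nearest to those of a pathway gene were also listed. Nearest to Srebf1 were Atp6v0a1, Psd4 and Homer3, with root mean square differences of 0.02, 0.03 and 0.03 log2 units over the 8 arrays and rises of 0.20, 0.19 and 0.20. Nearest to Fads2 were Tspan13, Slc27a6 and P2ry10b, with root mean square differences of 0.08, 0.10 and 0.10 and falls with differences of -0.88, -0.86 and -0.88. The ranking describes these arrays only.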

How the data were processed

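Total RNA of 8 macrophage cultures was labelled for Affymetrix arrays, 1 array per sample, per the labels' protocols. The deposited table holds log2 expression values that the authors made with RMA, per the submitters' processing notes, with no version or settings given in the sources used here. Small signals are compressed towards the background by RMA. Of 35557 probe sets 23410 were annotated, 21789 with 1 symbol, and 19938 genes were tested, each by its brightest single-symbol probe set.

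Groups came from the sample descriptions. Differences were tested with limma 3.58.1 in R 4.3.3 (two-sided, Benjamini-Hochberg over all genes, threshold 0.05), and pairs of genes with exact permutation tests (scipy 1.17.1). The limma step was tested on simulated data with independent noise per gene and array. Such data hold no shared pattern like that among the unloaded arrays. Whether replicate numbers pair the cultures was not settled. Correlations of same-numbered deviations were 0.11, -0.16, 0.30 and 0.14, and those of differently numbered ones ran from -0.33 to 0.31. The main fit took the cultures as unpaired, and counts with a replicate block are given below. With 4 arrays a group, the number of arrays limits precision.

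Members, lists, pairs and alternatives were chosen with earlier results of these data known. Named were all members, up to 3 called genes per list with the largest difference, the brightest and smallest-p gene per marker list, the 3 nearest profiles to Srebf1 and Fads2, and Insig1, Srebf2, Nr1h3, Abca1 and Acss2. Scd3, Scd4 and Fads3 were added as neighbours, and Stard4 after its value was seen. Alternatives covered normalization, filters, probe set choice, the prior, weights, a replicate block and left-out arrays.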

Additional observations from a re-analysis of the deposited data

Results flagged for a closer look

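Among 124 groups of 4 arrays checked (the genes given with values and the pairs, in each group), 4 held an array whose gap to the nearest other exceeded 0.829 of the group's range. Chance gives about 1 in 20 groups, and none of the 4 was among the 10 pathway genes or the pairs. Insig2 was at 8.30 in acLDL array 1 against 8.21 to 8.22 in the others, and Mcat at 7.12 in unloaded array 4 against 7.26 to 7.29. Mylip, an LXR target, was at 7.49 in unloaded array 3 against 7.65 to 7.67, and S100a8 at 6.08 in unloaded array 1 against 6.22 to 6.24.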

How the results depend on the processing

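Acly, Fasn, Elovl6, Scd1, Scd2, Fads1 and Fads2 fell in all 21 alternative settings run, of which centring on the median of all deposited probe sets was chosen after seeing the data. The count of the 10 genes that fell was 8 or 7 in each setting, and 7 to 8 when single arrays were left out. Elovl5 kept its sign in all 21 and passed in 14, with the highest adjusted p of 0.134. Srebf1 kept its sign in all 21 and passed in 18. The count that rose was 0 with centring on the median of the genes tested and 0 to 1 when single arrays were left out, and the cause was not tested. Acaca did not pass in any of the 21, and its difference ran from -0.11 to 0.01.

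With the replicate block, 8 genes fell and 1 rose, as without it, and 4860 of all genes were called in place of 4650. On the 6 pairs, limma called 5 and limma with the replicate block 6, against 4 by exact permutation. Among the 4 was Srebf1 minus Srebf2, whose exact p was fixed by the opposite moves of its genes. With an array left out, the smallest exact p is 0.0571, so the pairs were not retested in that way. Their differences kept their signs when each array was left out.

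Centring on the median of the genes tested gave 2087 rises and 2082 falls over all genes, against 2565 and 2085. The number of arrays limits what can be told apart, above all for differences as small as those of Srebf1 and Elovl5.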
